A study of Mus musculus with 18 samples.

Results

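The genes described here carry the insulin signal from the cell surface to the nucleus: the insulin receptor (Insr), its substrates Irs1 and Irs2, the phosphoinositide 3-kinase (PI3K) subunit Pik3r1, the kinases Akt1 and Akt2, the transcription factors Foxo1 and Foxo3, and the sestrins Sesn1 and Sesn3. They were chosen by name for their place in this pathway, and 10 of 10 were found among 17672 genes in the table. RNA came from a single immortalised line of mouse brown adipocytes. The line holds a permanent shRNA to Abhd5, which encodes the activator of the lipase ATGL, and also a copy of ABHD5 that escapes the shRNA, bears an mCherry tag and is switched on from pINDUCER20 by doxycycline (Dox). Without Dox the cells are labelled ABHD5 KD. With Dox (1 µg/ml) they are labelled WT, although they still carry the shRNA, and the length of Dox exposure is given as 24 h in one place and as up to 48 h in another. For 3 h, cells of each state received DMSO, the β-adrenergic agonist isoproterenol (ISO) at 10 nM, or SR-3420 at 20 µM, which binds ABHD5 and starts lipolysis with no receptor involved. This gave 6 groups of 3 and 18 libraries in all, described by the study as independent experiments on the same line. All cells had been differentiated in medium with insulin, so none of the groups lacked earlier exposure to the hormone, and no group was stimulated with insulin as a treatment.

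Insulin binding activates the kinase of its receptor, which phosphorylates IRS1 and IRS2. These adaptors recruit PI3K, whose lipid product brings AKT kinases to the membrane, and AKT phosphorylates FOXO factors and keeps them out of the nucleus. Nuclear FOXO activates genes of fasting, stress resistance and autophagy, including Irs2 and the sestrins in several tissues, and sestrins restrain the growth kinase complex mTORC1. In adipocytes insulin opposes lipolysis, while β-adrenergic agonists drive it. The comparisons below describe how the genes of this pathway responded to ISO or SR-3420 in cells with ABHD5 low or restored. Lipolysis itself was not measured in these libraries.

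The library totals ranged from 689910 to 1956565 counted reads, with a median of 1145729. Abhd5 was counted at 47.16, 55.77 and 54.78 CPM (counts scaled to library size) in DMSO without Dox and at 583, 655.8 and 484.2 CPM in DMSO with Dox, so the targeted gene followed its labels. ISO without Dox had Abhd5 at 172.9, 144.7 and 129.9 CPM, above DMSO (log2 1.505, adjusted p = 3.34e-07), and with Dox the change was 0.52 (adjusted p = 0.00502). The gap between the Dox states was thus smaller under ISO than in DMSO (difference of -0.98 on the log2 scale, SE 0.23, adjusted p = 0.0194). The counts do not separate the inducible copy from the gene of the cell. The SR-3420 library with Dox and replicate number 1 stood apart, since 35.6% of its reads fell on its 10 highest genes, against 16.34 to 26.49% in the other libraries. Calls of the members that rest on it are given with and without it, and so are those named from the pathway lists. The label of brown adipocyte was checked against marker genes. Of 5 general adipocyte genes, Adipoq, Pparg, Cidec and Plin1 were counted at group means of at least 365.2, 248.1, 241.6 and 463.9 CPM. The fifth, Fabp4, was at 19.44 CPM in DMSO without Dox, over a counted length of 73 bases. Ucp1, the defining thermogenic gene, was at 0.2966 CPM in DMSO and 70.32 CPM in ISO without Dox, and at 0.882 and 241.1 CPM with Dox. Dio2 was listed at 0 in every library. The 6 macrophage markers in the table summed to between 4.504 and 20.22 CPM. In RNA from whole cultures, fewer cells of a type and less RNA per cell cannot be told apart.

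Levels were first compared between genes per kilobase of counted length in DMSO without Dox, since the genes differ in length. Akt2 was highest, at 6.69 ± 0.940 CPM per kb (SD, n = 3), followed by Akt1 at 3.33 ± 0.264 CPM per kb. Insr (2.05 ± 0.211 CPM per kb) and Irs2 (1.84 ± 0.537 CPM per kb) did not differ beyond their spread, and neither did Sesn3 (0.967 ± 0.194 CPM per kb), Irs1 (0.876 ± 0.206 CPM per kb) and, next to Irs1, Sesn1 (0.663 ± 0.117 CPM per kb). Pik3r1 lay at 0.380 ± 0.0854 CPM per kb, and Foxo3 (0.150 ± 0.00786 CPM per kb) and Foxo1 (0.0964 ± 0.0233 CPM per kb) were lowest. In ISO with Dox the order was different, with Irs2 at 10.6 ± 1.76 and Irs1 at 8.09 ± 0.829 CPM per kb above Akt2 at 5.76 ± 0.702 CPM per kb. The counted lengths lie close to the intron lengths of most genes, and these values may hold reads of spliced and of unspliced RNA, so the order is one over counted length only.

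ISO raised Insr, Irs1 and Irs2 and lowered Akt2, Sesn1 and Sesn3 in both Dox states. Differences were tested with edgeR's quasi-likelihood test, with p-values adjusted by the Benjamini-Hochberg method over 10178 genes, and a gene passed at an adjusted p of 0.05 or less. All 10 genes were counted highly enough to be tested. Without Dox, 7 of 10 passed in ISO against DMSO, 4 higher (Insr, Irs1, Irs2, Akt1) and 3 lower (Akt2, Sesn1, Sesn3). Of all genes tested, 28.0% passed in that comparison, 14.5% higher and 13.5% lower. With Dox, 6 of 10 passed, 3 higher (Insr, Irs1, Irs2) and 3 lower (Akt2, Sesn1, Sesn3), beside 32.5% of all genes, 16.4% higher and 16.1% lower. SR-3420 against DMSO changed 1 of 10 genes without Dox (Sesn1, lower, beside 0.766% of all genes, 0.698% higher and 0.0688% lower) and 3 of 10 with Dox (Irs1 and Irs2 higher, Sesn1 lower, beside 9.90% of all genes, 6.53% higher and 3.37% lower). With the replicate number as a block, ISO changed 8 of 10 without Dox, beside 34.4% of all genes, and 7 of 10 with Dox, beside 39.5%. SR-3420 then changed 2 of 10 without Dox, beside 2.34% of all genes, and 5 of 10 with Dox, beside 15.4% of all genes. With a change of at least 2-fold as a further condition, 3 members passed in ISO without Dox (10.9% of all genes), 3 in ISO with Dox (13.1%), 1 in SR-3420 without Dox (0.265%), 1 in SR-3420 with Dox (3.10%), 1 in ISO against SR-3420 (6.85%) and 1 for the difference of the ISO responses between Dox states (1.31%). The median log2 fold change of the 10 genes in ISO was 0.57 without Dox and 0.20 with Dox, where the median gene lay at -0.010 and -0.020.

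The libraries themselves were also compared without a model, by asking whether the 3 values of each group overlapped. In ISO without Dox, 5 members lay wholly above DMSO and 3 wholly below it, beside 20.0% and 19.8% of all genes, and with Dox the counts were again 5 and 3, beside 21.3% and 21.4%. In SR-3420 without Dox, 1 member lay above and 2 below (7.79% and 6.29% of all genes), and with Dox 2 lay above and 1 below (13.6% and 12.2%). Between ISO and SR-3420 with Dox, 4 members were higher in ISO and 2 lower with no overlap (17.1% and 17.4%), and with Dox alone 1 was higher and 1 lower (7.98% and 6.98%).

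**Figure D1:**
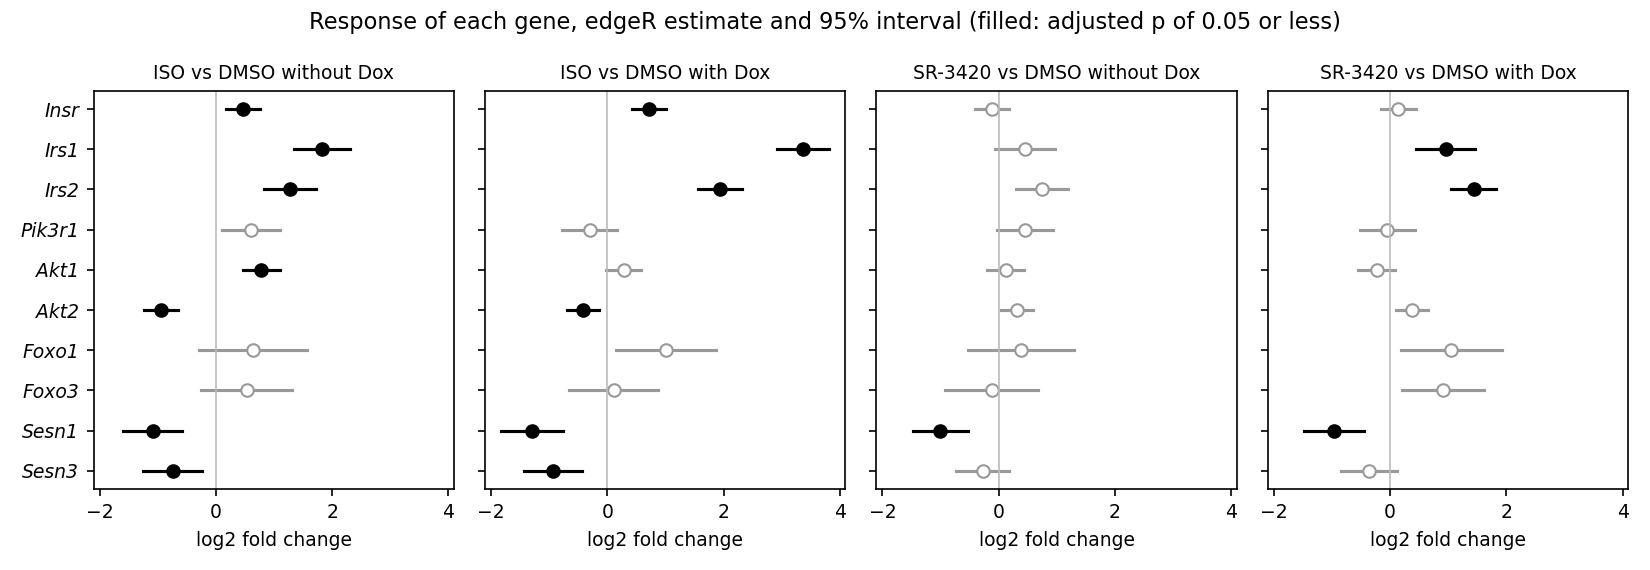
Log2 fold change of each gene in ISO or SR-3420 against DMSO, without and with Dox, with its 95% interval from edgeR. Points are estimates from 3 libraries a group, filled and black where the adjusted p was 0.05 or less. Irs1 and Irs2 lie farthest to the right in ISO with Dox, at 3.37 and 1.94, and Sesn1 is filled on the left in all 4 panels.

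Irs1 encodes the receptor substrate best known from muscle and fat. It lies on the minus strand of chromosome 1 (mm9, bases 82229680 to 82288014), and its annotated transcript has 2 exons. Its level in DMSO without Dox was 29.36, 47.61 and 40.58 CPM, and in ISO it was 168.6, 109.1 and 132.9 CPM. Cells with Dox had Irs1 at 28.4, 51.01 and 29.21 CPM in DMSO and 329.3, 354.4 and 402.3 CPM in ISO. Every ISO library lay above every DMSO library of the same Dox state, and every ISO library with Dox lay above every ISO library without it. The rise was 3.55-fold without Dox (log2 1.83, SE 0.24, adjusted p = 9.27e-07) and 10.3-fold with Dox (log2 3.37, SE 0.22, adjusted p = 1.09e-12).

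The response of Irs1 to ISO was larger with Dox than without it. The difference between the log2 changes was 1.54 (SE 0.33, 95% interval 0.86 to 2.22, adjusted p = 0.00969), and Irs1 alone among the 10 genes passed this test, beside 2.18% of all genes, 1.61% higher and 0.570% lower. For SR-3420 the same test passed for 0 of 10 with edgeR and for 0 with DESeq2, beside 0.757% of all genes (0.540% higher, 0.216% lower). An unadjusted p under 0.05 was found for 1, and the share of all genes under that limit was not counted. Without the DMSO library with Dox of replicate 1, the difference of Irs1 in ISO was 1.33 and its adjusted p was 0.0542. SR-3420 gave Irs1 levels of 42.96, 66.21 and 47.86 CPM without Dox and 48.34, 90.47 and 66.91 CPM with Dox. These overlapped DMSO in both states. The log2 change was 0.45 without Dox (SE 0.25, adjusted p = 0.649) and 0.96 with Dox (SE 0.25, adjusted p = 0.0105). The call with Dox held without the SR-3420 library that stood apart (log2 1.17, adjusted p = 0.00346), but was lost without DMSO replicate 1 (0.75, adjusted p = 0.112), DMSO replicate 3 (0.86, adjusted p = 0.0516) or SR-3420 replicate 2 (0.72, adjusted p = 0.0937). It was also lost with library totals as the only scaling (0.78, adjusted p = 0.0533).

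Irs2 encodes the substrate that FOXO factors control in liver. It lies on the minus strand of chromosome 8 (bases 10986964 to 11008430), also with 2 exons. Its level was 40.04, 21.76 and 34.49 CPM in DMSO, 103.7, 60.48 and 76.56 CPM in ISO and 62.7, 47.63 and 56.49 CPM in SR-3420 without Dox. Cells with Dox had Irs2 at 53.44, 38.52 and 49.43 CPM in DMSO, 211.8, 151.2 and 189.6 CPM in ISO and 133.6, 132.2 and 124.8 CPM in SR-3420. In each Dox state every ISO library and every SR-3420 library lay above every DMSO library. ISO raised Irs2 by 2.41-fold without Dox (log2 1.27, SE 0.22, adjusted p = 6.89e-05) and by 3.83-fold with Dox (log2 1.94, SE 0.18, adjusted p = 2.53e-09).

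SR-3420 raised Irs2 by 2.71-fold with Dox (log2 1.44, SE 0.19, adjusted p = 4.56e-06), and by 1.42 on the log2 scale without the library that stood apart (adjusted p = 4.5e-05). Without Dox the log2 change was 0.75 (SE 0.22, adjusted p = 0.138), and it passed with no filter on low counts (0.78, adjusted p = 0.0204) and with the replicate block (0.77, adjusted p = 0.00750). Whether Dox altered the response of Irs2 was also tested, and this did not pass for SR-3420 (0.69, 95% interval 0.085 to 1.30, adjusted p = 0.329) or for ISO (0.67, 0.068 to 1.27, adjusted p = 0.275). Irs1 and Irs2 both stand in a gene cluster that the study drew from these same libraries, so their direction here is not independent evidence.

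The promoters of Irs1 and Irs2 are shown because both genes rose with ISO in each Dox state. Each line gives the 250 bases before the first transcribed base in RefSeq (GRCm38.p6, minus strand, chr1:82291440-82291689 and chr8:11008930-11009179), with the E-box CACGTG in capitals, a motif that reads the same on both strands and is bound by factors of the MYC, USF and CLOCK families.
Irs1: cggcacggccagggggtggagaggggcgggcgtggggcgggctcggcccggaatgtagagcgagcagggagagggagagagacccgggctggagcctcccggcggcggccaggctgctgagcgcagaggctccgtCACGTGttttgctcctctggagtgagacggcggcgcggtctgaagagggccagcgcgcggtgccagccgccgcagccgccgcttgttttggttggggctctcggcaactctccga
Irs2: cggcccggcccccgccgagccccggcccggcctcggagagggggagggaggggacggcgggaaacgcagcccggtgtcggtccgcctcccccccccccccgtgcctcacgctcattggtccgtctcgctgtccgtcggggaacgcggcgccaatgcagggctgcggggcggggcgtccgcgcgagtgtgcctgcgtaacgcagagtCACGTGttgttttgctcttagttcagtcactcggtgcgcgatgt

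In Irs1 the E-box covers positions -115 to -110, and in Irs2 positions -44 to -39, counted from the first transcribed base. The sequences around it share the 10-base runs GTCACGTGTT and TGTTTTGCTC. An E-box was found in 7.15% of 32851 RefSeq promoter windows of 300 bases. The core of the cAMP response element, TGACG, was searched on both strands and found in 20.8% of windows. In Irs1 it matched the minus strand at -118 to -114, overlapping the E-box by 2 bases, and in Irs2 it was not in the window. The RefSeq start of Irs1 matched the deposited start, while that of Irs2 lay 499 bases before it. A match describes the letters only and says nothing of what binds there.

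Insr, which encodes the receptor itself (chromosome 8, bases 3150922 to 3279617, minus strand, 21 exons), rose less than its substrates. Its level without Dox was 219.8, 263.9 and 224.2 CPM in DMSO, 346.9, 321.2 and 305.5 CPM in ISO and 231.1, 249.7 and 166.3 CPM in SR-3420. Cells with Dox had 198.8, 190.5 and 170.8 CPM in DMSO, 328.5, 302.5 and 295.5 CPM in ISO and 178.4, 231.6 and 212.7 CPM in SR-3420. The ISO libraries lay above all others of the same Dox state, and the SR-3420 libraries overlapped DMSO. ISO raised Insr by 1.38-fold without Dox (log2 0.46, SE 0.14, adjusted p = 0.0160) and 1.65-fold with Dox (log2 0.72, SE 0.14, adjusted p = 2.64e-04).

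The Insr call without Dox was lost with library totals as the only scaling (log2 0.29, adjusted p = 0.239) and without DMSO replicate 1 (0.41, adjusted p = 0.0790), DMSO replicate 3 (0.42, adjusted p = 0.0672) or ISO replicate 1 (0.42, adjusted p = 0.0647). The Dox-dependent difference in the ISO response was 0.26 (95% interval -0.16 to 0.67, adjusted p = 0.611). With SR-3420 the log2 change was -0.12 without Dox (95% interval -0.41 to 0.17) and 0.15 with Dox (-0.15 to 0.44), and with Dox its sign turned with library totals as the only scaling (-0.022). Within Insr, a transcript on the other strand, Gm16180, holds 312 exon bases in its introns, and no source says that strand was used when reads were assigned. Pik3r1 shares 10.9% of its span with Gm11016, Irs1 4.84% with Gm9747, Irs2 2.71% with 9530052E02Rik and Foxo1 1.22% with RP24-337A16.1, all on the other strand, while the other members overlap no annotated gene.

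**Figure D2:**
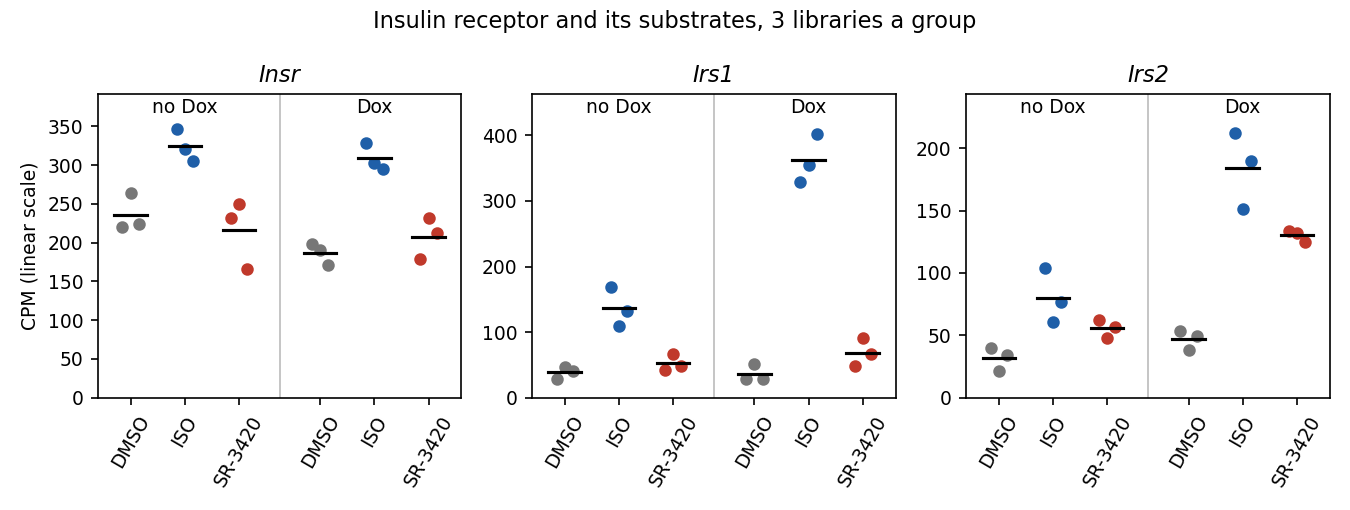
CPM (linear axis from 0) of Insr, Irs1 and Irs2 in each of the 18 libraries by treatment and Dox state. Points are libraries and black lines are means of 3. Irs1 in ISO with Dox lies between 329.3 and 402.3 CPM, against 109.1 to 168.6 CPM in ISO without Dox.

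In ISO without Dox, Akt1 rose and Akt2 fell, while with Dox the fall of Akt2 alone passed. Akt2, the isoform tied to glucose uptake in fat (chromosome 7, bases 28376579 to 28424472, plus strand), was at 291.8, 342.8 and 259.7 CPM in DMSO and at 140.5, 146.7 and 176.4 CPM in ISO without Dox. In cells with Dox, Akt2 was at 333.1, 324.8 and 366.3 CPM in DMSO and at 236.8, 240.2 and 292.6 CPM in ISO. All ISO libraries lay below all DMSO libraries of the same state. Akt2 fell 1.91-fold without Dox (log2 -0.94, SE 0.14, adjusted p = 1.14e-05) and 1.33-fold with Dox (log2 -0.41, SE 0.14, adjusted p = 0.0199).

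The fall of Akt2 with Dox did not pass without DMSO replicate 3 (log2 -0.35, adjusted p = 0.0870), ISO replicate 1 (-0.36, adjusted p = 0.0857) or ISO replicate 2 (-0.34, adjusted p = 0.0926). The difference between the Dox states was 0.52 (95% interval 0.12 to 0.93, adjusted p = 0.178). SR-3420 gave 380.3, 397.8 and 335.8 CPM without Dox and 476.3, 412.6 and 440.4 CPM with Dox, where all 3 libraries lay above DMSO. The log2 change was 0.32 without Dox (adjusted p = 0.445) and 0.38 with Dox (SE 0.13, 95% interval 0.11 to 0.65, adjusted p = 0.0697), so that neither passed the test. With the replicate block the change with Dox passed (0.38, adjusted p = 0.0145). Without the library that stood apart, it was 0.32 with no block (adjusted p = 0.228).

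Akt1, the isoform tied to growth and survival (chromosome 12, bases 113892032 to 113912487, minus strand), was at 55.17, 63.93 and 56.81 CPM in DMSO and at 107, 92.2 and 101.3 CPM in ISO without Dox. In cells with Dox, Akt1 was at 67.88, 68.7 and 71.9 CPM in DMSO and at 74.2, 89.79 and 89.52 CPM in ISO. The groups did not overlap in either state. Akt1 rose 1.72-fold without Dox (log2 0.78, SE 0.15, adjusted p = 3.28e-04). With Dox its log2 change was 0.29 (SE 0.15, adjusted p = 0.139), and the difference between the states was -0.50 (95% interval -0.93 to -0.059, adjusted p = 0.262). In SR-3420 it was at 64.44, 60.4 and 65.12 CPM without Dox and at 69.43, 48.71 and 58.92 CPM with Dox, overlapping DMSO in both states, and neither change passed (log2 0.12, adjusted p = 0.909, and -0.23, adjusted p = 0.421).

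Pik3r1 encodes the regulatory subunit p85 of PI3K (chromosome 13, bases 102450716 to 102538172, minus strand). It was at 32.03, 20.4 and 25.36 CPM in DMSO, 44.31, 39.66 and 37.53 CPM in ISO and 36.58, 27.88 and 45.5 CPM in SR-3420 without Dox. In cells with Dox, Pik3r1 was at 28.89, 33.31 and 43.82 CPM in DMSO, 30.01, 23.63 and 29.84 CPM in ISO and 30.76, 40.76 and 27.96 CPM in SR-3420. Against DMSO of the same Dox state, Pik3r1 was free of overlap only in ISO without Dox. Its log2 change in ISO was 0.60 without Dox (SE 0.24, adjusted p = 0.0620) and -0.30 with Dox (SE 0.23, adjusted p = 0.336), and the difference between them was -0.91 (95% interval -1.59 to -0.22, adjusted p = 0.171). The change without Dox passed when DMSO replicate 1 was left out (0.79, adjusted p = 0.0478).

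**Figure D3:**
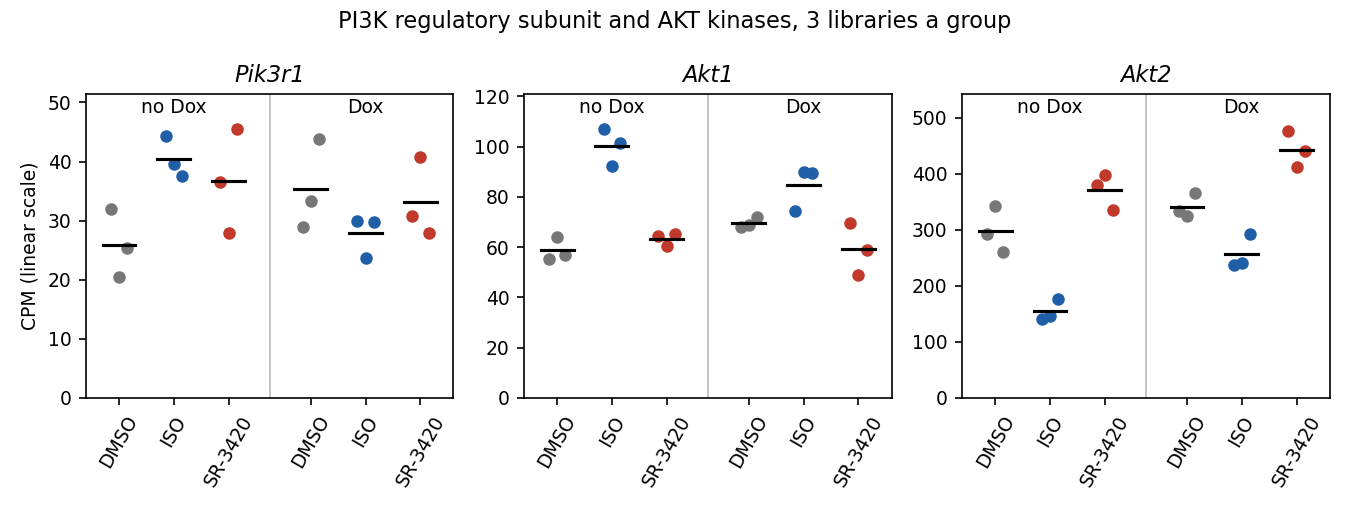
CPM (linear axis from 0) of Pik3r1, Akt1 and Akt2 in each of the 18 libraries by treatment and Dox state. Points are libraries and black lines are means of 3. Akt2 in ISO lies below DMSO and below SR-3420 in both Dox states, and Akt1 in ISO lies above both.

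The FOXO factors were counted too thinly for firm statements. Foxo1 (chromosome 3, bases 52072259 to 52154031, plus strand) had 4 to 24 counts a library and Foxo3 (chromosome 10, bases 41905592 to 41996548, minus strand) had 9 to 39. Foxo1 was at 5.777, 6.246 and 8.988 CPM in DMSO, 9.171, 17.33 and 14.44 CPM in ISO and 10.55, 7.953 and 23.97 CPM in SR-3420 with Dox. Its ISO libraries lay above DMSO, and its SR-3420 libraries overlapped it. The log2 change was 1.02 in ISO (SE 0.42, adjusted p = 0.0632) and 1.05 in SR-3420 (SE 0.42, adjusted p = 0.122), and the latter went to 0.47 without SR-3420 replicate 3, the highest library (adjusted p = 0.642). The change in ISO passed without ISO replicate 1 (1.24, adjusted p = 0.0398) and with the replicate block (0.99, adjusted p = 0.0489). Without Dox, Foxo1 was at 8.898, 5.441 and 7.102 CPM in DMSO, 15.13, 13.88 and 6.756 CPM in ISO and 7.547, 10.45 and 10.98 CPM in SR-3420, with log2 changes of 0.64 (adjusted p = 0.314) and 0.38 (adjusted p = 0.894).

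Foxo3 with Dox was at 10.59, 10.41 and 20.22 CPM in DMSO, 13.34, 9.452 and 20.21 CPM in ISO and 34.28, 15.91 and 22.97 CPM in SR-3420. The groups overlapped. The log2 change in SR-3420 was 0.91 (SE 0.35, adjusted p = 0.0994), and it was 0.57 without the library that stood apart, which held the highest value (adjusted p = 0.471). It passed without SR-3420 replicate 2 (1.14, adjusted p = 0.0454) and with the replicate block (0.95, adjusted p = 0.0232). In ISO with Dox the log2 change was 0.11 (95% interval -0.66 to 0.87) and its sign turned with upper-quartile factors (-0.0075) and with library totals (-0.035). Without Dox, Foxo3 was at 13.35, 12.24 and 12.17 CPM in DMSO, 22.69, 9.914 and 21.77 CPM in ISO and 15.09, 9.293 and 10.2 CPM in SR-3420, and the changes were 0.53 (95% interval -0.26 to 1.31) and -0.12 (-0.92 to 0.68).

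Sesn1, a stress-induced inhibitor of mTORC1 and a FOXO target gene in several cell types, fell under every stimulation. It lies on the plus strand of chromosome 10 (bases 41530380 to 41628242). It was at 60.5, 46.25 and 65.94 CPM in DMSO, 22.69, 17.85 and 39.03 CPM in ISO and 27.87, 30.78 and 28.24 CPM in SR-3420 without Dox. With Dox it was at 47.18, 54.13 and 42.69 CPM in DMSO, 19.17, 13.39 and 26.95 CPM in ISO and 18.46, 28.83 and 26.96 CPM in SR-3420. In each state no stimulated library reached the lowest DMSO library. ISO lowered Sesn1 2.12-fold without Dox (log2 -1.09, SE 0.25, adjusted p = 0.00146) and 2.45-fold with Dox (log2 -1.29, SE 0.26, adjusted p = 2.77e-04).

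SR-3420 lowered Sesn1 by a similar size in both states, at log2 -1.002 without Dox (SE 0.23, adjusted p = 0.0332) and -0.96 with Dox (SE 0.25, adjusted p = 0.0124). The difference between these was 0.040 (95% interval -0.68 to 0.76), with a sign that turned under upper-quartile factors (-0.026), library totals (-0.091) and no filter on low counts. The SR-3420 calls held with the replicate block, limma-voom and the other scalings and filters. Both were lost at an adjusted p of 0.01, and they were not firm when single libraries were left out. Without Dox, DESeq2 gave Sesn1 no adjusted p, and the call was lost without DMSO replicate 1 (-0.98, adjusted p = 0.184), DMSO replicate 3 (-0.90, adjusted p = 0.221), or SR-3420 replicate 1 (-0.97, adjusted p = 0.142), 2 (-1.05, adjusted p = 0.0727) or 3 (-0.99, adjusted p = 0.109). With Dox the call was lost without the library that stood apart (-0.78, adjusted p = 0.0988). Of the RefSeq windows of Sesn1, which has 2 starts, that of the first held the FOXO motif TGTTTAC at positions 23 to 29 after the first transcribed base, shown within 29 bases (GRCm38.p6, plus strand, chr10:41810585-41810613) with the motif in capitals. Among all windows 3.65% held this motif on either strand, and so did 1 window of Akt1, at -161 to -155. The window of the other Sesn1 start held TGACG at -61 to -57.
Sesn1: gaaccttctacTGTTTACcagccttttgg

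Sesn3, the sestrin linked to insulin sensitivity in liver (chromosome 9, bases 14080745 to 14130578, plus strand), was at 32.92, 46.25 and 33.48 CPM in DMSO, 23.77, 19.83 and 22.52 CPM in ISO and 31.93, 29.62 and 29.81 CPM in SR-3420 without Dox. With Dox it was at 25.52, 43.72 and 40.45 CPM in DMSO, 18.34, 15.75 and 21.18 CPM in ISO and 26.37, 21.87 and 32.96 CPM in SR-3420. The ISO libraries lay below DMSO in both states. Sesn3 fell 1.67-fold in ISO without Dox (log2 -0.74, SE 0.25, adjusted p = 0.0249) and 1.90-fold with Dox (log2 -0.93, SE 0.25, adjusted p = 0.00427). The call without Dox was lost in DESeq2 (adjusted p = 0.0550) and without DMSO replicate 2 (-0.59, adjusted p = 0.111), ISO replicate 2 (-0.67, adjusted p = 0.0774) or ISO replicate 3 (-0.75, adjusted p = 0.0631). In SR-3420 without Dox all 3 libraries also lay below DMSO, by little. The log2 change in SR-3420 was -0.28 without Dox (95% interval -0.73 to 0.18) and -0.37 with Dox (-0.85 to 0.11). Of the windows searched, those of Foxo1 and Sesn3 held none of the motifs named here.

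**Figure D4:**
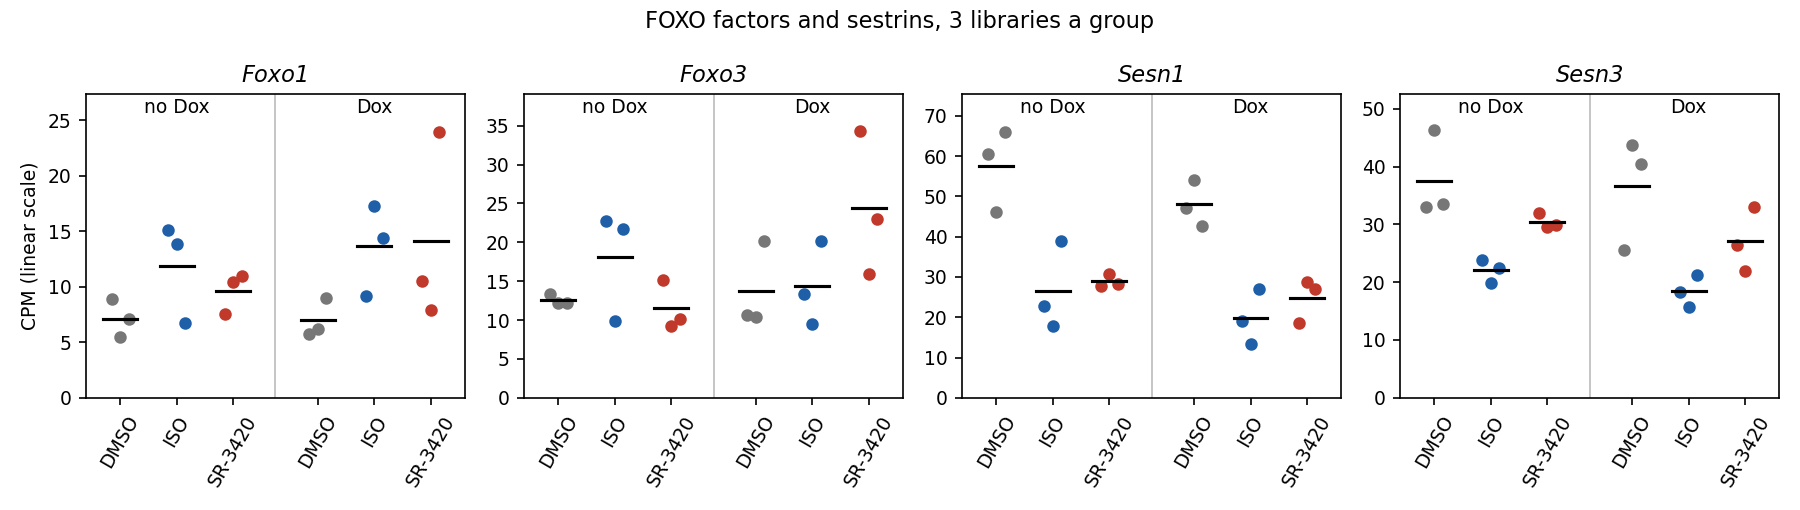
CPM (linear axis from 0) of Foxo1, Foxo3, Sesn1 and Sesn3 in each of the 18 libraries by treatment and Dox state. Points are libraries and black lines are means of 3. Sesn1 in DMSO lies between 42.69 and 65.94 CPM and in every stimulated library at 39.03 CPM or less.

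Dox alone did not change these genes detectably. In DMSO, 0 of 10 passed with edgeR and 0 with DESeq2, beside 1.18% of all genes (1.09% higher, 0.0884% lower). An unadjusted p under 0.05 was found for 2, and the share of all genes under that limit was not counted. These 2 members were Irs2, with a log2 change of 0.54 (95% interval 0.067 to 1.01, adjusted p = 0.414), and Insr, with -0.33 (-0.63 to -0.028, adjusted p = 0.445). In DMSO every Insr library with Dox lay below every one without it, beside 6.98% of all genes. Every Akt1 library with Dox lay above, beside 7.98% of all genes. Dox moved other genes in these cultures: 12 of 13 interferon-stimulated genes tested rose in DMSO, and their sum went from between 221.2 and 334.6 CPM to between 1073 and 2105 CPM. The part of these genes in the Dox comparisons was not tested. The summed level of 5 adipocyte markers also moved, from between 1461 and 1694 CPM in DMSO without Dox to between 1805 and 2034 CPM in DMSO with Dox. Of the 5, Plin1 rose with Dox alone (log2 0.76, adjusted p = 0.00519). With Dox the sum was between 3328 and 3466 CPM in ISO and between 2931 and 3879 CPM in SR-3420, where Irs1 and Irs2 also rose. In ISO without Dox it was between 1513 and 1692 CPM, with Pparg higher (0.55, adjusted p = 0.00987) and Cidec lower (-0.52, adjusted p = 0.0199), and Irs1 and Irs2 rose there as well. In SR-3420 without Dox it was between 2278 and 2543 CPM, with 3 of 5 markers higher. There neither Irs1 nor Irs2 passed in the fit with the filter on low counts and no block. The summed level of 6 preadipocyte markers was lower in ISO than in DMSO with no overlap, at 103.7 to 108.8 CPM against 143 to 167.3 CPM without Dox and at 105 to 151.2 CPM against 153 to 173 CPM with Dox. Of the 3 that were tested, Pdgfrb fell by 1.20 and 0.78 on the log2 scale (adjusted p = 1.59e-06 and 1.81e-04), Ly6a rose by 3.29 without Dox (adjusted p = 3.53e-05), and Pdgfra did not pass in either state. The part of these markers in the results was not tested.

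ISO and SR-3420 were compared directly with Dox, at a single and different dose of each and at the same time. Of the 10 genes, 5 passed, 4 higher in ISO and 1 lower, beside 19.8% of all genes, 10.4% higher and 9.43% lower. Irs1 was 5.30-fold higher in ISO (log2 2.41, SE 0.20, adjusted p = 5.06e-10), and Insr 1.49-fold higher (log2 0.58, SE 0.14, adjusted p = 0.00436). Akt2 was 1.73-fold lower in ISO (log2 -0.79, SE 0.14, adjusted p = 9.27e-05). These 3 calls held without the SR-3420 library that stood apart, at log2 2.22, 0.49 and -0.72. Sesn1 did not pass, with a difference of -0.33 (95% interval -0.93 to 0.26), and neither did Sesn3 at -0.56 (-1.09 to -0.030, adjusted p = 0.129).

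The remaining calls between ISO and SR-3420 were Akt1 and Irs2. Akt1 differed by 0.51 on the log2 scale (SE 0.15, adjusted p = 0.0171), and the call was lost without ISO replicate 2 (0.48, adjusted p = 0.0505), ISO replicate 3 (0.49, adjusted p = 0.0545) or SR-3420 replicate 2 (0.41, adjusted p = 0.0956), and when the other groups were left out of the fit (0.50, adjusted p = 0.0589). Without the library that stood apart, Akt1 differed by 0.67 (adjusted p = 0.00826). Irs2 differed by 0.50 (SE 0.17, adjusted p = 0.0344). That call was lost without ISO replicate 1 (0.38, adjusted p = 0.164), ISO replicate 3 (0.50, adjusted p = 0.0763) or SR-3420 replicate 1 (0.54, adjusted p = 0.0553), 2 (0.52, adjusted p = 0.0590) or 3 (0.47, adjusted p = 0.102), and with upper-quartile factors (0.45, adjusted p = 0.0506) or DESeq2 (0.51, adjusted p = 0.0548).

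Around the receptor, 16 of 18 listed adaptors and regulators were tested. In ISO, 2 rose and 1 fell without Dox, and 3 rose and 6 fell with Dox. These are 18.8% and 56.2% of those tested, beside 28.0% and 32.5% of all genes, and the list's median log2 change was -0.23 and -0.16. Ptpn1, the phosphatase that switches the receptor off, rose by 1.64 without Dox (adjusted p = 1.30e-08) and 0.64 with Dox (adjusted p = 0.00334). Sh2b2, an adaptor of the receptor, rose by 0.87 (adjusted p = 1.34e-04) and 1.40 (adjusted p = 1.71e-08). Igf2r fell by 1.01 without Dox on the log2 scale, and it overlaps the antisense RNA Airn, which cannot be told apart here. The docking protein gene Gab1 fell by 1.02 with Dox. In SR-3420, 1 listed gene rose without Dox (6.25% of the list, beside 0.766% of all genes), and 2 rose with Dox, among them Sh2b2 by 0.86 (adjusted p = 2.36e-04), or by 0.78 without the library that stood apart (adjusted p = 0.00352). Those 2 are 12.5% of the list, beside 9.90% of all genes.

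In the PI3K and AKT arm, 21 of 22 listed genes were tested. In ISO, 2 rose and 4 fell without Dox, and 4 rose and 5 fell with Dox, with medians of -0.34 and -0.076. These are 28.6% and 42.9% of those tested, beside 28.0% and 32.5% of all genes. Pde3b, the phosphodiesterase through which AKT lowers cAMP in adipocytes, rose by 0.72 (adjusted p = 0.00347) and 1.69 (adjusted p = 1.26e-08). Tbc1d4, the AKT substrate that holds back GLUT4, fell by 0.84 in ISO without Dox, and the lipid phosphatase gene Inppl1 fell by 0.56. Pik3r2, a sister gene of Pik3r1, fell by 1.41 in ISO with Dox (adjusted p = 5.68e-05) and by 0.97 in SR-3420 with Dox (adjusted p = 0.00782). Foxo6 fell by 2.25 in ISO with Dox (95% interval -3.42 to -1.09), on 1 to 3 counts a library. Trib3, an inhibitor of AKT, rose by 2.29 in SR-3420 with Dox (adjusted p = 7.47e-07), where 2 listed genes rose and 1 fell (14.3% of the list, beside 9.90% of all genes). In SR-3420 without Dox, 0 rose and 1 fell (4.76% of the list, beside 0.766% of all genes). With Dox and without the library that stood apart, 3 rose and 1 fell, beside 6.19% of all genes tested in that fit, with Trib3 at 2.03 (adjusted p = 1.83e-05) and Pik3r2 at -1.11 (adjusted p = 0.0121).

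In the mTORC1 and sestrin arm, 25 of 28 listed genes were tested. In ISO, 1 rose and 1 fell without Dox, and 4 rose and 2 fell with Dox, with medians of 0.038 and 0.15. These are 8% and 24% of those tested, beside 28.0% and 32.5% of all genes. Mtor, the kinase of the complex, rose by 1.47 (adjusted p = 1.12e-08) and 1.35 (adjusted p = 1.62e-08), and its span also holds Angptl7, whose reads cannot be told apart from it without strand. Prkab2, an AMP kinase subunit, fell by 0.90 without Dox. With Dox Rptor rose by 0.71, and Nprl3 and Depdc5, subunits of the complex that restrains mTORC1 in amino acid shortage, fell by 0.61 and 0.48. Nprl3 overlaps Mpg on the other strand. In SR-3420, 0 passed without Dox, beside 0.766% of all genes. With Dox 3 rose (Rragc 0.75, Prkag2 0.91 and Tsc1 0.57) and 1 fell (Prkag1, by 0.47), 16% of the list beside 9.90% of all genes. Without the library that stood apart, Rragc alone of these passed (0.76, adjusted p = 0.00186, beside 6.19% of all genes), while Prkag2 was at 0.78 (adjusted p = 0.0760), Tsc1 at 0.60 (adjusted p = 0.0582) and Prkag1 at -0.48 (adjusted p = 0.0877). The sestrin gene Sesn2 passed in neither direction, with log2 changes of -0.51 and 0.66 in ISO.

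Of the listed FOXO target genes, 19 of 24 were tested. In ISO, 5 rose and 2 fell without Dox, and 10 rose and 2 fell with Dox, with medians of 0.091 and 0.51. These are 36.8% and 63.2% of those tested, beside 28.0% and 32.5% of all genes. Pck1, which feeds glyceride-glycerol synthesis in fat, rose by 3.21 (95% interval 2.11 to 4.30) on 3 to 4 counts a library in DMSO, and by 5.35 with Dox (adjusted p = 2.97e-13). Ppargc1a, the coactivator of thermogenic genes, rose by 2.19 and 3.28, the antioxidant gene Sod2 by 2.19 and 1.90, and the repressor gene Bcl6 by 0.72 without Dox. Pdk4, which turns fuel use from glucose to fatty acids, rose by 2.21 in ISO with Dox (adjusted p = 3.07e-08). In SR-3420, 0 passed without Dox, beside 0.766% of all genes. With Dox 7 rose and 2 fell, with a median of 0.55 (47.4% of the list, beside 9.90% of all genes). Pdk4 rose there by 2.68 (adjusted p = 9.92e-09), the autophagy gene Gabarapl1 by 1.40, Pck1 by 2.78 and the cell cycle inhibitor gene Cdkn1a by 0.87. Without the library that stood apart, 5 rose and 1 fell, beside 6.19% of all genes tested in that fit, and these 4 genes passed at 2.53, 1.23, 2.73 and 0.68. Sesn1, a FOXO target gene in several cell types but not on this list, fell in each of these comparisons when all libraries were used. FOXO activity was not measured, and its part in the changes of the listed genes was not tested.

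The genes whose log2 CPM followed each member most closely over the 18 libraries were named as a description, since the libraries share treatments and scaling. Irs1 was followed by Tle1 (r = 0.966) and Ppp2r4 (r = 0.963), and Irs2 by Tle3 (r = 0.966) and Ppargc1b (r = 0.965). Akt2 was followed by Rufy4 (r = 0.953) and Dgkd (r = 0.951), Akt1 by Apex1 and Rpl13a (r = 0.920 for both), and Insr by Pld1 (r = 0.917) and Hsph1 (r = 0.913). The likeness was looser for Sesn3 with Asic1 (r = 0.876) and Cabin1 (r = 0.871), Sesn1 with Zbtb8a (r = 0.874) and Fbxo31 (r = 0.873), and Foxo3 with Ranbp3 (r = 0.843) and Tstd2 (r = 0.777). For Foxo1 the nearest gene was Apobec1 (r = 0.785), and for Pik3r1 they were Nt5dc3 (r = 0.756) and Hmg20b (r = 0.728).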

How the data were processed

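Libraries were prepared with TruSeq2 from total RNA of the 18 cultures. Per the study's methods and the labels, the authors aligned reads to mm9 with STAR 2.4.2a, kept 1 read per position and length with HOMER, and counted reads with iRNA-seq. The table the authors deposited holds raw counts. Its counted length was close (within 10%) to intron length in 72.6% of 16435 matched genes and to exon length in 2.48%, although the methods name gene counting. Abhd5 rose with its inducible coding construct, so the counts may hold reads of both spliced and unspliced RNA, in shares that were not tested.

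Groups and replicate numbers were taken from the sample titles. Counts were fitted in edgeR 4.0.16 (R 4.3.3; glmQLFit and glmQLFTest, two-sided) with TMM factors (0.768 to 1.13) and 1 mean per group, after filterByExpr kept 10178 of 17672 genes. Deviations from the group means of same-numbered libraries correlated above 0.1 in all 3 pairs for ISO against DMSO with Dox (0.159 to 0.254) and for SR-3420 against DMSO without Dox (0.131 to 0.258) and with Dox (0.120 to 0.238), so the numbers were taken as pairing those libraries, from the data alone since no label names a shared day, and values with a replicate block are given beside the results they change. In each of the other comparisons of 2 groups 1 pair lay under 0.1. SE is the log2 fold change divided by the square root of F, and intervals are 95%. CPM used library totals times TMM factors. Counting was not stated to use strand. Alternatives were other scalings and filters, DESeq2 1.42.0, limma-voom 3.58.1, a replicate block and leaving out each library. The pathway lists without the library that stood apart were added after seeing the data. The scripts were tested on simulated counts. Promoter windows were matched by symbol, for 9 of 10 genes, to RefSeq (GRCm38.p6); Insr was the other one.

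The members, gene lists and tests were chosen with earlier results of these data known. Named were all 10 members, per list and stimulation up to 4 passing genes with the smallest p, per member the 2 other genes with the highest Pearson r of log2(CPM + 1), and Abhd5; a few genes that this rule names are not reported here. With 3 libraries a group, p-values measure the spread between these experiments on 1 line.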

Additional observations from a re-analysis of the deposited data

Results flagged for a closer look

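These results were picked out because the response to a stimulus differed between the Dox states by the interaction test of edgeR (adjusted over all genes). Irs1 rose more in ISO with Dox than without it, by 1.54 on the log2 scale (SE 0.33, adjusted p = 0.00969). Among the listed pathway genes, the ISO response was higher with Dox for Pdk4 by 1.76 (SE 0.36, adjusted p = 0.00616), for Bnip3 by 1.22 (SE 0.28, adjusted p = 0.0139) and for Pde3b by 0.97 (SE 0.25, adjusted p = 0.0332). For Ptpn1 it was lower with Dox, with a difference of -1.001 (SE 0.23, adjusted p = 0.0182). The SR-3420 response was higher with Dox for Pdk4 by 1.98 (SE 0.36, adjusted p = 0.00639), for Trib3 by 2.21 (SE 0.43, adjusted p = 0.0133) and for Gabarapl1 by 1.43 (SE 0.32, adjusted p = 0.0257). Without the SR-3420 library with Dox of replicate 1, which stood apart, these differences were 1.83 for Pdk4 (adjusted p = 0.0204), 1.95 for Trib3 (adjusted p = 0.0428) and 1.26 for Gabarapl1 (adjusted p = 0.0756), so that the last no longer passed. Groups of 3 are too small for the test of single outlying libraries.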

How the results depend on the processing

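Of 23 calls of members, 8 passed under every alternative run, and 6 more were lost only with a 2-fold limit or an adjusted p of 0.01. The same count was not made over all genes, so whether the members differ from other genes in this was not tested. For the settings below, the percent of all genes tested that passed under the same setting stands in parentheses. With the 2-fold limit, 3 members passed in ISO without Dox (10.9%) and 3 with Dox (13.1%), 1 in SR-3420 without Dox (0.265%) and 1 with Dox (3.10%), 1 in ISO against SR-3420 (6.85%) and 1 for the difference of the ISO responses (1.31%). With an adjusted p of 0.01, 0 passed in SR-3420 without Dox (0.285%), 1 with Dox (5.11%) and 3 in ISO against SR-3420 (1121 of 10178 genes). In SR-3420 without Dox, 2 passed with no filter on low counts (0.983%), and 0 of the 5 members to which DESeq2 gave an adjusted p (2.28%). Leaving out 1 library gave 0 to 1 members in SR-3420 without Dox (0.268 to 0.515%), 3 to 4 in ISO against SR-3420 (14.6 to 17.3%) and 0 to 1 for the difference of the ISO responses (1.06 to 2.92%). Apart from these limits, which shorten the list by construction, the cause was not tested.

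Replicate numbers are shared across groups. Over all groups, 34 of 45 same-numbered pairs correlated above 0.1, and 18 of 18 libraries correlated best with their own number. With the replicate block, 8 members passed in ISO without Dox (34.4% of all genes), 7 in ISO with Dox (39.5%), 2 in SR-3420 without Dox (2.34%), 5 in SR-3420 with Dox (15.4%) and 6 in ISO against SR-3420 (27.2%). The members gained under it, beside those given above, were Pik3r1 in ISO without Dox (adjusted p = 0.0434) and Foxo3 in ISO against SR-3420 (0.0438), 2 comparisons in which 1 pair lay under 0.1.

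Library totals alone moved the median gene by -0.17, -0.14 and -0.19 (log2) in ISO without Dox, ISO with Dox and SR-3420 with Dox and by -0.14 in the difference of the SR-3420 responses, and upper-quartile factors moved it by -0.12 in ISO with Dox. Small values that did not pass changed sign. Foxo3 in ISO with Dox went to -0.0075 (upper quartile) and -0.035 (library totals), and from -0.18 to 0.43 when 1 library was left out. Foxo3 with Dox alone went to -0.037 (library totals), -0.061 (limma-voom) and from -0.26 to 0.26. Insr in SR-3420 with Dox went to -0.022 (library totals). Foxo1 in ISO against SR-3420 went to 0.0052 (library totals), 0.066 (limma-voom) and from -0.30 to 0.55. The Dox difference of the SR-3420 response went to -0.010 (upper quartile) and -0.077 (library totals) for Akt2, with -0.052 to 0.14 when 1 library was left out, and to -0.026 (upper quartile), -0.091 (library totals) and -0.0037 (no filter) for Sesn1, with -0.076 to 0.23. Leaving out 1 library also gave -0.23 to 0.032 for Insr and -0.38 to 0.030 for Foxo3 in SR-3420 without Dox, -0.22 to 0.10 for Pik3r1 in SR-3420 with Dox, -0.42 to 0.076 for Irs1, -0.30 to 0.068 for Foxo1 and -0.24 to 0.19 for Sesn3 with Dox alone, -0.46 to 0.24 for Sesn1 in the difference of the ISO responses, and -0.36 to 0.068 for Sesn3 in that of the SR-3420 responses. Foxo1 and Foxo3 had 4 to 24 and 9 to 39 counts a library, and their intervals span more than a doubling. What widened these intervals was not tested.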
